A study of Mus musculus with 12 samples.

Results

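Open chromatin around 8 homeobox genes was followed in hematopoietic stem cells (HSCs) of mouse bone marrow. The genes were Hoxa5, Hoxa7, Hoxa9, Hoxa10, Hoxb4, Hoxb5, Meis1 and Pbx3. A region was counted as theirs when it lay within a gene body or within 10 kb of it, and it was counted once where genes of a cluster overlapped. This gave 39 regions of the 71006 in the whole catalogue. They fell into 4 loci: 11 regions at the Hoxa genes, 5 at the Hoxb genes, 17 at Meis1 and 6 at Pbx3.

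HOX genes encode homeodomain transcription factors, which bind DNA and are arranged in clusters along the chromosome. MEIS and PBX proteins belong to a related class, the TALE homeodomain proteins, and bind DNA together with HOX proteins. In blood, Hoxa9 and Meis1 maintain stem and progenitor cells and are kept active together in several leukemias, with Pbx3 as a partner. Hoxb4 expands HSCs when it is overexpressed, Hoxb5 marks the HSCs that repopulate longest, Hoxa10 acts in progenitor self-renewal, and Hoxa5 and Hoxa7 act in early progenitors and their lineage choices.

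Accessibility had been profiled with ATAC-seq, where a transposase cuts and tags DNA that nucleosomes leave exposed. Wild-type (WT) and Mlkl-/- C57BL/6 mice were sampled young, at 3 months, and aged, at 18 months, with 3 libraries in each of the 4 groups and no treatment named in the labels. Mlkl encodes the effector of necroptotic cell death, and the labels name no tissue-specific driver for its loss. HSCs had been sorted as Lin-, cKit+, Sca1+, Flk2-, CD48- and CD150+ cells. Every library was a pool over animals, which reduced variation between single animals but did not remove it. Fewer aged than young animals went into a pool, so aged pools averaged over fewer animals. The question was whether age, loss of Mlkl or both went with a change in openness at these stem cell regulators.

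The deposited lists give summits, the points of strongest signal in a peak, with a score that is the −log10 of the q-value. A region is a merged window of 250 bp on each side of summits with a score of at least 3, and it was called in a list that holds such a summit in it. Full lists held 28428 to 48959 regions. Lists of young HSCs held 28428 to 46823 regions and lists of aged HSCs 38931 to 48959. Rank 1 is the region of highest score in its list, so a low rank number means a strong region, and a list percentile runs from 100 at the top to 0 for a region that was not called. For tests each list was reduced to 35714 summits (28428 to 30856 regions), ranks were converted to normal scores, and a change is a difference in mean normal score. Sequencing depth is unknown, and with 3 libraries per group the number of libraries limits the precision. Ranks describe relative openness within a sample of many cells, and fewer cells with an open site cannot be told apart from a site that is less open in each cell.

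The sorted identity was compared with marker genes, counting a start as open when a summit lay within 1 kb of it. Of 12 HSC and early progenitor genes, 7 to 11 were open in a young list and 8 to 11 in an aged list, and Kit, Hlf, Tal1, Ptprc and Cd34 were open in all 12 lists. Slamf1, which encodes the CD150 used in the sort, was open in 0 lists. None of 6 T cell genes was open in any list. In a list 1 or 2 of 6 B cell genes and 0 or 1 of 7 granulocyte and monocyte genes were open. For erythroid genes this was 1 to 3 of 6, and for megakaryocyte genes 3 or 4 of 5. Ebf1 (B cell), Epor (erythroid) and Pf4, Gp9 and Itga2b (megakaryocyte) were also open in all 12 lists. These counts did not set the HSC genes apart from the megakaryocyte genes. Of 6 lists per age, 3 of the young ones and 0 of the aged ones held summits at starts of Y-linked genes, and the labels give no sex. At Mlkl itself 2 regions, 1 of them at its start, were called in all 12 lists. Openness there does not show whether the gene product is lost, so the genotype labels were not checked.

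Meis1 held the strongest regions of the set, and these lay inside the gene and not at its start. Meis1 occupies chr11:18879817-19018985 on the minus strand (mm10). Sequences of 201 bases around the summit are shown for 4 intronic regions on which the results turn. They are the 2 strongest regions, the 1 region whose calls separated young from aged WT lists, and the region with the smallest p for age. Capitals mark matches to the motifs searched, and the letters are the plus strand of the reference.
Meis1 intron 8, 93.85 kb from the start, chr11:18925019-18925219: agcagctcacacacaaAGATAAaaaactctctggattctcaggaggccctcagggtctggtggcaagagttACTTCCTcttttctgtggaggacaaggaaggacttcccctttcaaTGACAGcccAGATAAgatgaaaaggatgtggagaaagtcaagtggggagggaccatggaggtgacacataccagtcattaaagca
Meis1 intron 7, 48.8 kb from the start, chr11:18970095-18970295: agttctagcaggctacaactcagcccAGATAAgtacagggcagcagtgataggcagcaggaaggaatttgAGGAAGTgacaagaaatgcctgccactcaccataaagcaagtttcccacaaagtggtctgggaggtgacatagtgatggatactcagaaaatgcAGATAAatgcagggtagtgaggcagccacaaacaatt
Meis1 intron 7, 45.0 kb from the start, chr11:18973908-18974108: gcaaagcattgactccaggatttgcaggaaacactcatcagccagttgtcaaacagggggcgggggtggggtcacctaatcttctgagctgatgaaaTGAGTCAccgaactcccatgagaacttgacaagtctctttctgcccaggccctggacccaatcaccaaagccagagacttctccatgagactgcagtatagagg
Pbx3 intron 2, 11.9 kb from the start, chr2:34360090-34360290: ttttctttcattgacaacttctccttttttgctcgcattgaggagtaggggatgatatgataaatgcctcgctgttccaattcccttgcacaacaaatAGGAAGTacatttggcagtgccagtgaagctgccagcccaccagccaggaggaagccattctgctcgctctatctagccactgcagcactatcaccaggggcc
In the intron 8 sequence the capitals are GATA factor motifs at positions 17 and 126, an ETS motif at 72 and a MEIS motif at 117, counted from the left end with the summit at position 101. The 48.8 kb sequence has GATA factor motifs at 27 and 165 and an ETS motif at 71, so both strong Meis1 sequences hold an ETS and 2 GATA factor matches. The 45.0 kb sequence has an AP-1 motif at 98 and the Pbx3 sequence an ETS motif at 99, each overlapping its summit.

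Motif matches were counted within 100 bp of the summit of every region, on both strands. MEIS (TGACAG) was found in 8 of 39 regions (20.5%, against 14.3% of all 71006). ETS (AGGAAGT) was found in 7 (17.9% against 16.1%), 5 of them at Meis1. HOX-PBX (TGATTTA) was found in 2 regions (5.13% against 2.31%), which were the region in exon 1 of Hoxa9 and the Meis1 region 80.8 kb from the start. RUNX (TGTGGTT) was in 1 region (2.56% against 10.3%), GATA factor (AGATAA) in 3 (7.69% against 9.28%) and AP-1 (TGANTCA) in 3 (7.69% against 10.2%). A match describes letters and not a bound factor, and these shares were not tested. Median GC content of the windows was 51.7% both in the 39 regions and in the catalogue, with 61.2% at Hoxa and 47.8% at Meis1.

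Of the 39 regions, 9 (23.1%) were called in all 12 lists, against 28.6% of all regions, and 4 (10.3%) in 1 list, against 17.0%. Of the 9, 6 were at Meis1, 2 at Hoxa, 1 at Pbx3 and 0 at Hoxb. An annotated start of any gene lay within 1 kb of 14 regions (35.9%, against 27.7% of all regions), and 9 of these were at a start of a member gene. The highest summit was intronic in 24 regions, in a UTR in 7, intergenic in 6, in coding sequence in 1 and in a non-coding exon in 1.

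**Figure D1:**
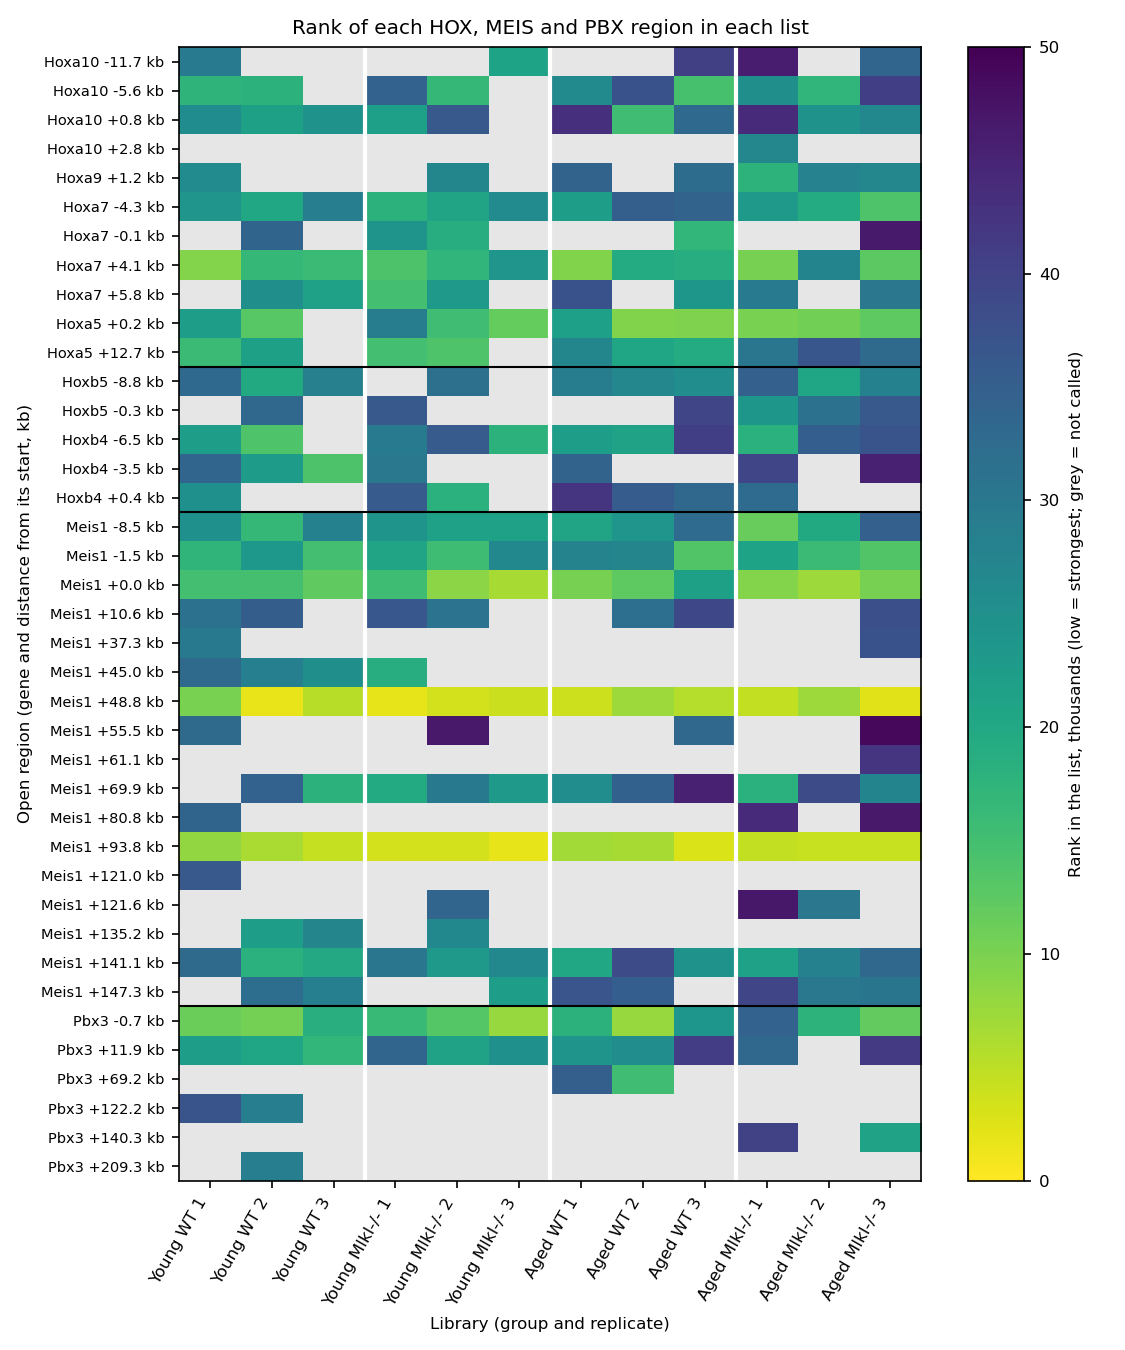
Rank of each of the 39 regions (rows, named by gene and distance from its start in kb) in each of the 12 lists (columns). Yellow marks the strongest ranks and grey a region not called, and the bright rows are the Meis1 regions 48.8 and 93.85 kb from the start, called in all 12 lists.

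The Meis1 region in intron 8 (chr11:18924841-18925387) was among the strongest in each list. Young WT lists ranked it at 8116, 6349 and 4333, and young Mlkl-/- lists at 3387, 3416 and 1919. Aged WT lists ranked it at 6889, 6552 and 2857, and aged Mlkl-/- lists at 4597, 4228 and 4115. The 3 young Mlkl-/- values were all stronger than the 3 young WT values, in rank and in list percentile, and the WT ages overlapped. They were also stronger in rank than the 3 aged Mlkl-/- values, but overlapped with them in list percentile. The list percentile divides the rank by list length, so that at the same rank a longer list gives a higher percentile. Aged lists were longer on average, and the share of list length in this overlap was not tested. The list percentile was 82.3 ± 3.50 for WT and 92.4 ± 1.10 for Mlkl-/- at 3 months, and 87.3 ± 5.92 for WT and 90.3 ± 1.22 for Mlkl-/- at 18 months (SD, n = 3). The genotype difference at 3 months was 0.39 ± 0.16 in normal score (SE, limma adjusted p = 0.870) and over both ages 0.24 ± 0.12 (limma adjusted p = 0.764), so it did not pass the threshold.

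The Meis1 region in intron 7 (chr11:18969855-18970470, 48.8 kb from the start) had a similar position. It ranked at 10083, 1737 and 5307 in young WT and at 1822, 3469 and 4086 in young Mlkl-/- lists. It ranked at 3763, 7289 and 5491 in aged WT and at 4627, 7299 and 2300 in aged Mlkl-/- lists. All 4 groups overlapped, and its list percentile over the 12 libraries was 87.8 ± 6.86 (SD), next to 88.1 ± 4.98 for the intron 8 region.

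At the Meis1 start, a region over exon 1 (chr11:19018429-19019270) was called in all 12 lists, with ranks of 14953, 14796 and 12232 in young WT and 15600, 8788 and 6448 in young Mlkl-/-. The ranks were 10260, 12472 and 21624 in aged WT and 9238, 7239 and 10173 in aged Mlkl-/- lists. At 18 months the 3 Mlkl-/- values were all stronger than the 3 WT values, in rank and in list percentile, and at 3 months the genotypes overlapped. The difference at 18 months was 0.32 ± 0.20 (SE, limma adjusted p = 0.884) and did not pass. Upstream, regions 1.52 kb and 8.5 kb from the start were also called in all 12 lists, with ranks from 13553 to 27617 and from 11656 to 34601.

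A weaker Meis1 region in intron 7 (chr11:18973739-18974282, 45.0 kb from the start) was the 1 member region called in all lists of one group and in none of its comparison group. It ranked at 32809, 28360 and 25110 in the 3 young WT lists and at 18909 in Young Mlkl-/- 1, and it was called in 0 of the other young Mlkl-/- lists and 0 of 6 aged lists. Over the catalogue 4.13% of regions were all-or-none between ages in WT in either direction, and 0.524% were called in every young WT list and no aged WT list. Of the 39 regions, 0 were all-or-none between ages over both genotypes (0.896% of the catalogue) or within Mlkl-/- (2.98%), and 0 between genotypes at 3 months (0.434%) or 18 months (0.687%). The age change over both genotypes was −0.49 ± 0.24 (SE, limma adjusted p = 0.238). Without the reduction to equal length it was −0.88 ± 0.24 with a limma adjusted p of 0.0181, nearer to the threshold of 0.01 but not past it. Nearer the end of Meis1, in its last intron 135 kb from the start (chr11:18883425-18883971, in a UTR of another transcript), a region was called in Young WT 2, Young WT 3 and Young Mlkl-/- 2, at ranks of 22097, 27163 and 26609, and in 0 of 6 aged lists. Its age change was −0.47 ± 0.23 (SE, limma adjusted p = 0.233), and −0.75 ± 0.24 (adjusted p = 0.0418) without the reduction. Both regions were thus called in young lists alone, at ranks no stronger than 18909. In full lists a region not called takes a lower normal score the longer the list, and aged lists were longer on average. Both age changes without the reduction therefore include list length, and its share was not tested.

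The other 10 Meis1 regions ranged from 1 list (61.1 and 121.0 kb from the start) to 12 lists. The one 141 kb from the start, past the end of the gene, was called in all 12 lists at ranks of 18057 to 38622. The intron 7 region 69.9 kb from the start was called in 11 lists at ranks of 17821 to 45424. The remaining 6 of these 10, between 10.6 and 147 kb from the start, were called in 2 to 8 lists.

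**Figure D2:**
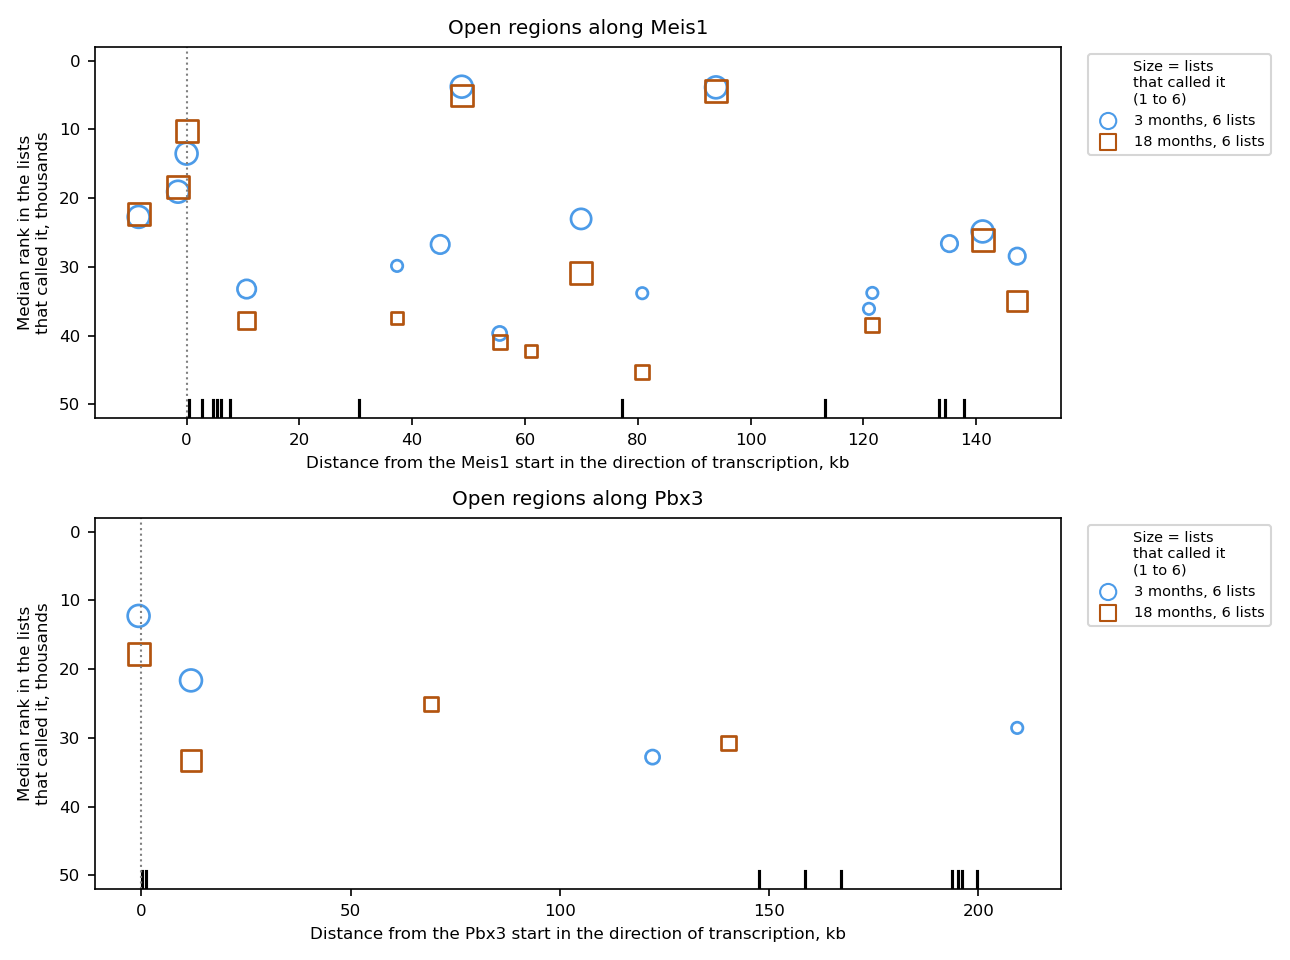
Median rank (y, strong at the top) of each region among the lists that called it, against distance from the start of Meis1 and Pbx3 in kb (x), for 3-month (circles) and 18-month lists (squares). Marker size gives the number of lists, 1 to 6, and black ticks mark exon centres of the transcript with the longest coding sequence; the 2 strongest Meis1 regions lie 48.8 and 93.85 kb into the gene.

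Pbx3 occupies chr2:34171457-34373142 on the minus strand. Its start region (chr2:34371868-34373464) was called in all 12 lists at ranks from 7647 to 34306. At 3 months they were 11218, 10455 and 18600 for WT and 16152, 13272 and 7647 for Mlkl-/-, and at 18 months 17922, 7764 and 23736 for WT and 34306, 17708 and 11945 for Mlkl-/-. The groups overlapped, and the age change was −0.36 ± 0.23 (SE, limma adjusted p = 0.380).

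In Pbx3 intron 2 (chr2:34359881-34360526), the region 11.9 kb from the start had the smallest p for age among the members. It ranked at 22032, 20488 and 16802 in young WT and at 33754, 21234 and 24965 in young Mlkl-/- lists. In aged WT lists it ranked at 24147, 25461 and 40972, and in aged Mlkl-/- at 33284 and 41440, with no call in Aged Mlkl-/- 2. The 3 aged WT values were all weaker in rank than the 3 young WT values, but in list percentile they overlapped (45.1 in Aged WT 1, against 42.6 and 42.2 in Young WT 1 and 2), and the Mlkl-/- ages overlapped on both measures. Its list percentile was 43.3 ± 1.59 in young WT and 32.5 ± 14.7 in aged WT, against 26.2 ± 24.7 and 15.0 ± 14.9 in young and aged Mlkl-/- (SD, n = 3). The change with age was −0.60 ± 0.26 (SE, limma adjusted p = 0.172), and that with genotype −0.55 ± 0.26 (limma adjusted p = 0.764), so neither passed. The 4 remaining Pbx3 regions, farther into the gene or past its end, were called in 1 or 2 lists each.

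The Hoxa cluster lies on chromosome 6. Its most constant region (chr6:52212969-52213688) lay 4.08 kb past the Hoxa7 start, between Hoxa5 and Hoxa7, in a non-coding exon of Hoxaas3. The region covered an annotated start of Gm28308, and a start of Hoxa3 lay within 1 kb. It was called in all 12 lists at ranks from 9352 to 27392, with a list percentile of 57.8 ± 19.6 (SD, n = 12), and its age change was close to 0 (0.01 ± 0.17). Hoxaas3 is an antisense transcript of the cluster.

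The start of Hoxa5 (chr6:52204124-52204881, summit in the UTR of exon 1) was open in 11 of 12 lists. Ranks were 21970 and 12920 in young WT with no call in Young WT 3, and young Mlkl-/- lists ranked it at 29074, 15357 and 11785. Aged WT lists had it at 21680, 9529 and 9653, and aged Mlkl-/- lists at 10115, 10646 and 12338. Most aged lists placed it above most young lists. The ages overlapped in rank in both genotypes, and in list percentile they overlapped in WT and not in Mlkl-/-. Its list percentile was 35.4 ± 32.4 for WT and 49.9 ± 22.9 for Mlkl-/- at 3 months, and 69.0 ± 16 and 75.4 ± 3.05 at 18 months (SD, n = 3). The age change of 0.49 ± 0.22 (SE, limma adjusted p = 0.208) did not pass the threshold. Beyond the 3′ end of Hoxa5, a region at the start of Hoxa4 (chr6:52191686-52192309) was called in 10 lists, and at 18 months the Mlkl-/- values were all weaker than the WT values, in rank and in list percentile (−1.05 ± 0.40, SE, limma adjusted p = 0.869).

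At Hoxa9 a region in exon 1, at the start of a shorter transcript (chr6:52225890-52226464), was called in 7 lists. It ranked at 25832 in Young WT 1 and 26967 in Young Mlkl-/- 2, at 34174 and 32254 in 2 of 3 aged WT lists, and at 17671, 27897 and 26888 in the 3 aged Mlkl-/- lists. At 18 months the 3 Mlkl-/- values were all stronger in rank than the WT values, but in list percentile they overlapped (28.3 in Aged Mlkl-/- 2, against 34.1 in Aged WT 3). The difference in normal score was 0.97 ± 0.34 (SE, limma adjusted p = 0.773). Upstream of Hoxa7, a region across the 5′ end of the gene body (chr6:52221537-52222282) was called in all 12 lists. At 3 months its ranks were 23881, 20217 and 28533 for WT and 17914, 20837 and 25940 for Mlkl-/-, and at 18 months 22019, 34856 and 34162 for WT and 22908, 19285 and 13830 for Mlkl-/-. The genotypes overlapped in rank at each age, and in list percentile at 3 months but not at 18 months. Their difference was 0.84 ± 0.32 at 18 months (SE, limma adjusted p = 0.869) and 0.47 ± 0.23 over both ages (limma adjusted p = 0.764).

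The remaining Hoxa starts were called less regularly. The start of Hoxa7 (chr6:52217328-52217939) was called in 5 lists, at ranks of 33969, 24035, 18834, 16961 and 46449, and these came from all 4 groups. Its age change differed between genotypes by −1.15 ± 0.52 (SE, limma adjusted p = 0.965), which did not pass. The upstream start of Hoxa10 (chr6:52240235-52240850) was called in 10 lists at ranks from 14506 to 40665. A second Hoxa10 region, in the coding sequence of exon 1, was called in 11 lists at ranks from 15261 to 43937. A further region 5.76 kb past the Hoxa7 start (chr6:52211451-52212003) was called in 8 lists, and 1 in exon 2 of Hoxa10 in Aged Mlkl-/- 1 alone. The last, 11.7 kb upstream of Hoxa10 at the start of Hoxa11, was called in 5 lists at ranks from 21010 to 46278.

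The Hoxb genes lie on chromosome 11, and none of their 5 regions was called in all 12 lists. The region 6.49 kb upstream of Hoxb4 (chr11:96311476-96312156) was called in 11 lists at ranks from 13828 to 40781. Nearer to Hoxb4, at 3.53 kb upstream, a region was called in 3 of 3 young WT lists (33706, 22473 and 14022) and in 4 of the other 9 lists, and it was too rarely called at equal length to be tested. One 8.83 kb upstream of Hoxb5 (chr11:96294316-96295095) was called in 10 lists, at ranks of 32888, 19611 and 28239 in young WT and 31511 in Young Mlkl-/- 2, and at 29028, 26913 and 25485 in aged WT and 34725, 20555 and 27962 in aged Mlkl-/-. All 6 aged lists and 4 of 6 young lists called it, the ranks overlapped, and its age change was 0.42 ± 0.26 (SE, limma adjusted p = 0.361).

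The starts of both Hoxb genes were called in part of the lists. The start of Hoxb4 (chr11:96318369-96319013) was called in 7 lists. Aged WT was the one group with a call in each of its 3 lists (42207, 35406 and 33121), and the others were Young WT 1 (24981), Young Mlkl-/- 1 and 2 (35594 and 18073) and Aged Mlkl-/- 1 (32500). The start of Hoxb5 (chr11:96303011-96303594) was called in 1 list each of young WT, young Mlkl-/- and aged WT, at 33318, 36100 and 39514, and in all 3 aged Mlkl-/- lists, at 23503, 31305 and 36098. After the reduction to equal length the Hoxb5 start was left in 1 list and the Hoxb4 start in 2, so neither was tested.

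**Figure D3:**
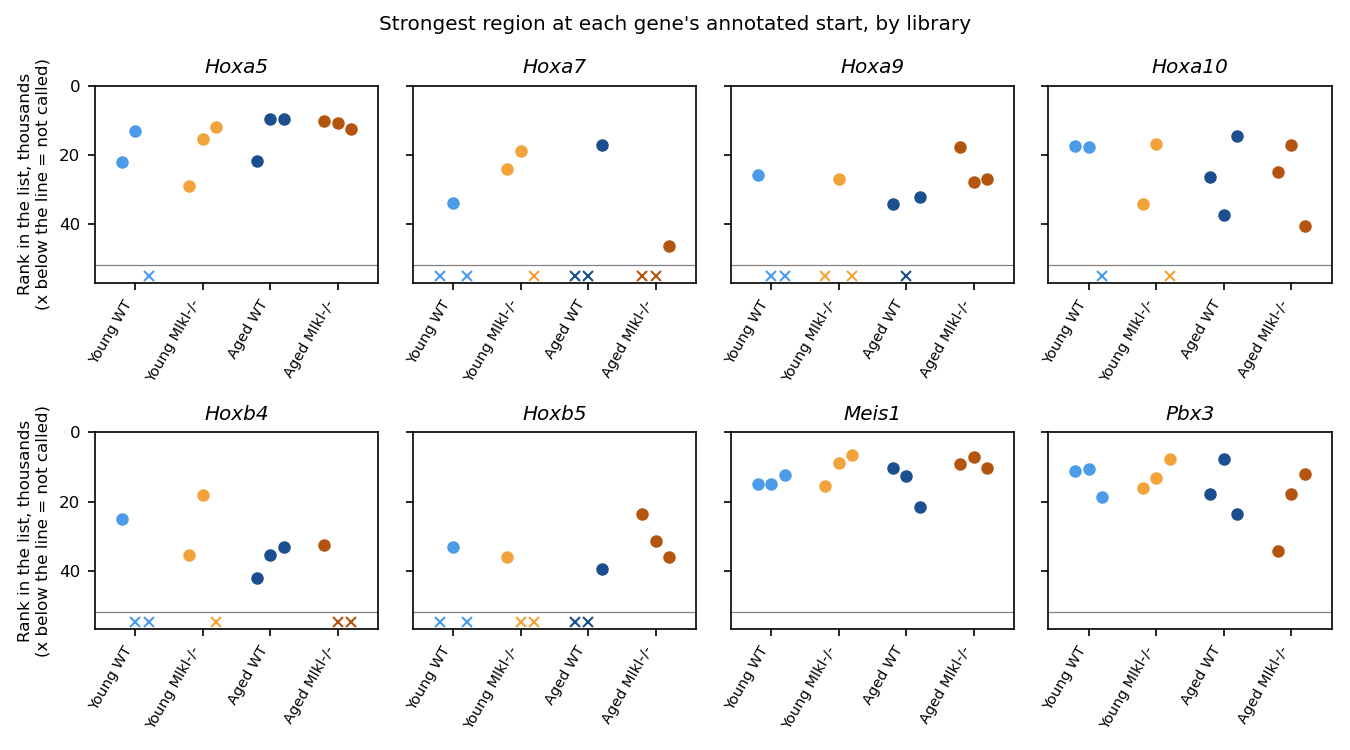
Rank (y, strong at the top) of the strongest region at a start of each of the 8 genes, with 1 point per library and a cross under the line for a library without a call. Meis1 and Pbx3 have 12 calls each and Hoxa7 has 5.

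Ordered by list percentile over the 12 libraries, the start regions ran from Meis1 (70.0 ± 10.4) through Pbx3 (61.0 ± 15.9), Hoxa5 (57.4 ± 24.6), Hoxa10 (34.6 ± 26.2), Hoxa9 (22.3 ± 22.0), Hoxb4 (15.2 ± 20.1) and Hoxa7 (14.3 ± 24.9) to Hoxb5 (10.6 ± 15.7; SD, n = 12 each). Each neighbouring pair in this order differed by less than the larger of its spreads. The order describes how strong a start was beside other regions of the same list and is not a level of expression.

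At 3 months, WT lists called 27, 27 and 18 of the 39 regions (mean 24 ± 5.20, SD, n = 3) and Mlkl-/- lists 23, 25 and 15 (21 ± 5.29). At 18 months, WT lists called 23, 21 and 25 (23 ± 2.00) and Mlkl-/- lists 28, 20 and 30 (26 ± 5.29). Aged lists called 2.00 more than young lists on average, less than the spread between replicates, while aged lists also held more regions. As a share of the regions in a list, the members made up 0.0619 ± 0.0094% in young and 0.0547 ± 0.0044% in aged lists (SD, n = 6). After reduction to equal length, aged lists called 13 to 16 and young lists 15 to 21, a mean difference of −2.83. The direction of this count therefore turned with list length, and the genotypes differed by 0 and −0.50 regions in full and equal lists.

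**Figure D4:**
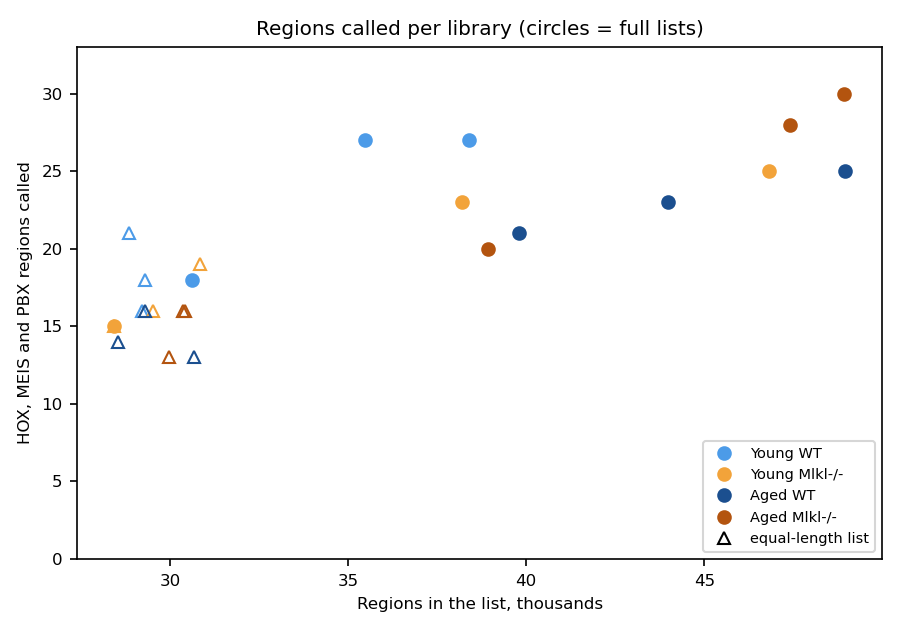
Number of the 39 regions called (y) against the number of regions in the list (x, not starting at 0), for full lists (circles) and lists reduced to the same number of summits (triangles). Full lists with 28428 and 30633 regions called 15 and 18, and the longest lists called 25 to 30.

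At equal length, 23 of the 39 regions were called in at least 3 lists and could be tested, 9 at Hoxa, 2 at Hoxb, 10 at Meis1 and 2 at Pbx3. None of the 23 passed an adjusted p under 0.01 in limma in any of 7 contrasts. For age over both genotypes 2.72% of all tested regions passed (1031 of 37870), for age in WT 0.201% and for age in Mlkl-/- 0.151%. The calls within a genotype fell when single libraries were left out. For WT, of 59 higher and 17 lower, 1 higher and 0 lower were left without Aged WT 1. For Mlkl-/-, of 53 higher and 4 lower, 5 higher were left without any 1 of its 3 aged libraries. Without Aged WT 1, a library outside that contrast, 22 higher and 2 lower were left for Mlkl-/-. Leaving out a library also lowers precision, and the cause of these falls was not tested. In the 4 contrasts that involve genotype, including the difference in age change, 0 regions of the whole catalogue passed, with 1805 to 2349 at an unadjusted p under 0.05.

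At an unadjusted p under 0.05 in limma, age over both genotypes gave 1 region higher (the Hoxa5 start) and 1 lower (Pbx3 intron 2) of the 23, against 22.1% of all regions. Age in WT gave 0 (14.6% of all regions) and age in Mlkl-/- gave 1 lower, the region at the Hoxa4 start (14.3%). Genotype at 3 months gave 1 higher (5.36%), at 18 months 2 higher and 1 lower (5.1%), and over both ages 1 higher and 1 lower (6.2%). The difference in age change between genotypes gave 1, the Hoxa7 start (4.77%). The age change over both genotypes had a median of −0.16 over the 23 regions, with 7 of them positive, against −0.01 over all tested regions, of which 49.0% were positive. The median genotype difference over both ages was 0.02 over the 23 regions and 0.00 over all.

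Whether the groups overlapped was counted on the same equal lists, with regions not called held equal, and 3 of the separations below were absent in the list percentiles of the full lists (Pbx3 intron 2, Meis1 intron 8 for age, and Hoxa9 exon 1). Over both genotypes, 0 of the 23 regions separated all aged from all young lists, against 3.72% of all regions. Within WT 1 region did, lower with age (Pbx3 intron 2, against 17.2%), and within Mlkl-/- 1 did, also lower (Meis1 intron 8, against 15.9%). Between genotypes 1 region separated at 3 months (Meis1 intron 8, higher in Mlkl-/-, against 8.07%) and 3 at 18 months (Hoxa9 exon 1 and the Meis1 start higher, the Hoxa4 start lower, against 8.61%). For age within each genotype, 1 of 23 is a smaller share than that of the catalogue, and for genotype the counts rest on 1 and 3 regions. List percentiles of the full lists also separated regions that the equal lists did not. With age, Meis1 45.0 kb from the start was lower in WT, and the Hoxa5 and untested Hoxb5 starts were higher in Mlkl-/-. At 18 months, Mlkl-/- was higher at the Hoxa7 5′ end, 147 kb from the Meis1 start and at the Hoxb5 start. No catalogue share is given for list percentiles, and they include list length. No result about the members is therefore drawn from these further separations.

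**Figure D5:**
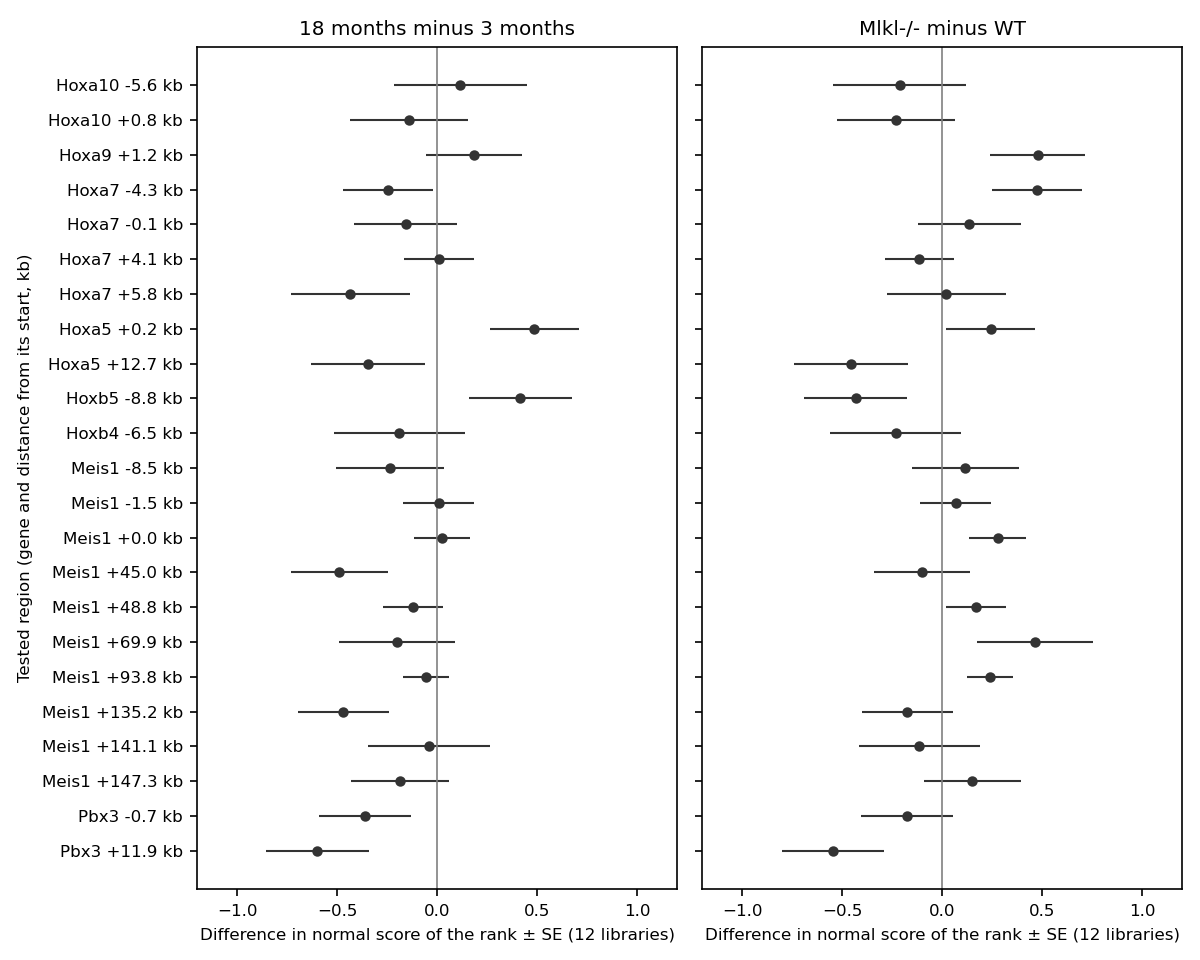
Difference in mean normal score of the rank, with its SE over 12 libraries (x), for the 23 tested regions (y), between ages (left) and genotypes (right). Points right of 0 are stronger at 18 months or in Mlkl-/-, and 0 of the 23 passed the threshold on either side.

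The Y-linked summits moved with age, and with their presence as a term, chosen after seeing the data, the age change was −0.73 ± 0.32 for Pbx3 intron 2 and 0.45 ± 0.29 for the Hoxa5 start (limma adjusted p = 0.217 and 0.412).

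Genes linked to these factors were described from lists of the pathway. Other HOX genes had 30 regions, of which 7 were tested and 0 passed for age over both genotypes. Of the MLL machinery that keeps HOX genes active, 25 of 48 regions were tested and 1 fell with age, at Mllt3 (−1.24 ± 0.24, limma adjusted p = 0.00386). Of the targets of these factors, 20 of 42 were tested and 1 fell with age, at Flt3 (−1.12 ± 0.21, limma adjusted p = 0.00235). Of all tested regions 1.01% fell with age (381 of 37870), beside 1 of 25 and 1 of 20 here, and 1 region sets neither list apart. Mllt3 encodes a reader of histone acylation that maintains HSCs, and Flt3 encodes the receptor Flk2, whose absence from the surface was part of the sort. The median age change was 0.10 for other HOX genes, −0.03 for the MLL machinery and −0.25 for the targets, against −0.01 over all tested regions, and no region of the 3 lists passed in any genotype contrast.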

How the data were processed

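The study measured ATAC-seq in 12 pools of HSCs (3 per group). Per the study's methods, the authors mapped 70 bp single reads to mm10 with Bowtie2 2.5.3, called peaks per library with MACS2 2.2.7.1 without a model, and used bedtools 2.31.0 and edgeR 3.30.3. HSC replicates were processed on the same day. Each deposited list gives summits with a −log10 q-value as its score, which rises with library depth. The lists hold no counts, so a count model was not used. The lowest deposited score was 2.00016, below the stated cutoff, and scores of at least 3 (q of 0.001) were kept.

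Windows of 250 bp were merged over the 12 full lists on chromosomes 1 to 19, X and Y, giving 71006 regions. Members overlapped a GENCODE vM21 gene body or 10 kb around it. Starts are those of the basic transcript set, and distances use the transcript with the longest coding sequence. Each list was reduced to 35714 summits, ranks became normal scores (regions not called lay between −0.575 and −0.525), and those present in 3 or more lists entered limma 3.58.1 (trend, 1 fit over 4 groups, 7 contrasts) in R 4.3.3, with Benjamini-Hochberg adjustment over all 37870 and a threshold of 0.01. The script was tested on simulated data. Each library pools animals, so p-values measure the spread between pools. The 12 libraries in 4 groups of 3 were grouped by the labels.

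Members, lists and tests were chosen with earlier results of these data known. Regions described singly are the strongest at each gene's start, the 2 strongest away from starts per locus, those past the threshold, the 5 and 3 with the smallest p for age and genotype, and all-or-none regions; further ones were added after seeing values. Sequences came from GRCm38.p6 (RefSeq), which is the same build, with samtools 1.23.1 and pysam 0.24.0; no sequence within an exon is printed. Other steps used Python 3.11.15, numpy 2.4.6, scipy 1.17.1, pandas 2.3.3 and matplotlib 3.10.9. Alternatives were other score minimums, windows, list lengths, numbers of lists, scales, gene distances and thresholds, covariates, a replicate block, 9 libraries sharing a file-name tag, separate fits and each library left out. One further list of pathway genes is not reported here.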

Additional observations from a re-analysis of the deposited data

How the results depend on the processing

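In every alternative run for the 7 contrasts (179 in all, 26 settings), 0 HOX, MEIS and PBX regions passed the threshold, also at an adjusted p under 0.05 with equal lists; the lowest adjusted p was 0.0181, with lists of unequal length. This covers the replicate block, with 0 regions in each contrast. Libraries with the same number had correlations of −0.301 to 0.128 over 18 pairs (1 over 0.1). Those with different numbers had −0.179 to 0.306 over 36 pairs (5 over 0.1). Libraries with the same number were thus no more alike, but this check cannot exclude a pairing by number. The difference between ages in regions called per list was 2.00 in full lists and −2.83 in lists of equal length, and 0.50 to 2.90 when each library was left out in turn; that between genotypes was 0, and −1.30 to 1.70 with libraries left out. The 5 age changes over both genotypes and the 3 genotype changes over both ages with the smallest p were followed. They kept their sign in every alternative that could give a value. These regions were picked by p in the same data, so a kept sign is no independent support. The Meis1 regions 45.0 and 135 kb from the start had no aged call, which left their sign little room to turn. With libraries left out, each gave a value in 9 of 12 runs. Changes within 1 age or genotype were not followed for single regions. Over all regions, 650 higher and 381 lower calls for age became 1253 and 777 with unequal lists, 1672 and 1266 at an adjusted p under 0.05, 134 and 68 in the 9 libraries with the tag, 50 and 10 with list length as a term, and 271 and 58 with Y-linked summits as a term (the last chosen after seeing the data); the cause was not tested. Leaving out each library gave 439 to 727 higher and 218 to 368 lower calls, with 218 to 237 lower calls without Young WT 2, Young WT 3, Young Mlkl-/- 1, Aged Mlkl-/- 1 or Aged Mlkl-/- 2. For age in WT (59 higher, 17 lower) leaving out each library gave 1 to 71 higher and 0 to 19 lower, and for age in Mlkl-/- (53 and 4) 5 to 57 and 1 to 4; percentiles of ranks gave 0 for both in limma (5333 and 5273 at an unadjusted p under 0.05). The presence of summits on chromosome Y could not be fitted as a term, since all 12 lists held some; their number was not fitted. Depth is unknown, and 16 of 39 regions were called too rarely to test.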
